A study of Mus musculus with 8 samples.

Results

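The BCL2 family decides whether mitochondria of a stressed cell release the proteins that start apoptosis. The values below describe 10 mouse genes of this family out of 54146 genes measured, in EL4 cells that carried T-bet, GATA3, both factors or neither. The members were chosen by gene symbol and were fixed as Bcl2, Bcl2l1, Bcl2a1b, Bcl2a1d, Mcl1, Bax, Bak1, Bcl2l11, Pmaip1 and Bbc3, which have 38 transcripts among the 136535 quantified. EL4 is an established mouse T cell lymphoma line. All libraries came from cells stimulated for 4 h with the phorbol ester PMA at 50 ng/ml and ionomycin at 1 μM, so no unstimulated level was measured here. The GFP + Plum line, the control, had the fluorescent proteins GFP and Plum and neither factor. The T-bet + Plum line expressed FLAG-T-bet, the TH1 lineage-determining factor, with Plum. The GFP + GATA3 line expressed HA-GATA3, the TH2 factor, with GFP. The T-bet + GATA3 line expressed both tagged factors.

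For each of the 4 lines 2 libraries were analysed here, fewer replicates than the study's legend gives for its expression data. The study defines replicates as harvests of the same line on different days, so every p-value below measures the spread between harvests and not between independently made lines. Each combination of factors exists as a single transduced line, and a property of that line cannot be told apart from the factor it carries. EL4 cells also have Gata3 of their own, so the GFP and Plum libraries are not free of it.

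BCL2 proteins fall into 3 roles. Pro-survival members (BCL2, BCL-XL from Bcl2l1, MCL1 and A1 from the Bcl2a1 copies) hold the effectors BAX and BAK in check, and the effectors, once released, make pores in the outer mitochondrial membrane. BH3-only members such as BIM (Bcl2l11), NOXA (Pmaip1) and PUMA (Bbc3) respond to stress by occupying the pro-survival proteins. Thymocytes and mature T cells are known to depend on BCL2 and MCL1, and BIM is needed for negative selection and for the contraction of T cell responses. All of these proteins are also controlled after translation, and mRNA levels alone were measured here.

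The libraries held between 8038565 and 16003519 estimated counts, with T-bet + Plum 1 the shallowest. Tbx21, which encodes T-bet, was at 129 to 160 CPM (counts scaled to a common library size after TMM normalization) in the 4 libraries with FLAG-T-bet and at 1.78 to 3.59 CPM in the other 4. Gata3 was at 283 and 326 CPM in GFP + GATA3, 204 and 165 in T-bet + GATA3, 39.8 and 53.3 in GFP + Plum, and 25.8 and 34.9 in T-bet + Plum cells. It was lower with FLAG-T-bet (averaged log2 FC -0.67, SE 0.14, FDR 0.0174), so Gata3 levels differed between the HA-GATA3 comparisons with and without FLAG-T-bet. Both are sums of endogenous and introduced mRNA, and they fit the labels of all 8 libraries. Of 8 T cell markers, Cd247 was at 0 to 0.511 TPM (transcript abundance scaled by length and to a common total) and the other 7 were at 32.5 TPM or above in every library. Summed TPM over the whole T cell list ran from 1043 to 1438. The B cell, myeloid and erythroid lists each summed to less than 0.9 TPM in every library, with Cd79b and Hbb-bs at 0 in all 8. The myeloid list was lower with FLAG-T-bet (0.123 to 0.210 TPM over 5 genes) than without it (0.742 to 0.891 TPM). The 4 fibroblast genes summed to 0.576 to 1.95 TPM with FLAG-T-bet and 3.56 to 7.12 TPM without, mostly from Pdgfra, while Col1a2 never exceeded 0.0277 TPM. The part of these low levels in the results was not tested.

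Levels of different genes can be compared only per length, so TPM is used for that purpose. In the GFP + Plum cells Bax had the highest level of the family, at 223 ± 9.38 TPM (SD, n = 2), followed by Mcl1 at 186 ± 7.55 and Bcl2l1 at 142 ± 38.6 TPM. The Bax total included 46.8 and 53.5 TPM from Bax-202, a transcript annotated at 343 bases. Another 30.8 and 23.2 TPM came from Bax-206, a retained-intron transcript of 548 bases. The rank of Bax above Mcl1 depends on counting these short transcripts. Members other than Bax, Mcl1 and Bcl2l1 were far lower. Bak1 stood at 16.0 ± 1.30 TPM, Bcl2 at 15.6 ± 1.06, Bcl2a1d at 9.79 ± 5.92, Bcl2l11 at 7.62 ± 0.636, Bbc3 at 3.59 ± 0.0574, Bcl2a1b at 3.47 ± 2.44 and Pmaip1 at 0.193 ± 0.153 TPM. The libraries of Bak1 and Bcl2 overlapped in this line, as did those of Bcl2a1d and Bcl2l11, and those of Bbc3 and Bcl2a1b. Thus the pro-survival mRNA among the 10 members was mostly Mcl1 and Bcl2l1, and Bcl2 itself made up between 2.31% and 5.12% of its TPM over the 8 libraries. Bcl2l2, a pro-survival gene outside the members, was at 38.8 to 56.9 CPM and is not in this sum.

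The same 3 genes led in every line, but the order of their means changed. In both lines with FLAG-T-bet the order also differed between the 2 libraries. In T-bet + Plum cells Bcl2l1 had the highest mean, 174 ± 52.8 TPM, and its libraries overlapped those of Bax (162 ± 14.9 TPM), which in turn overlapped those of Mcl1 (157 ± 16.3 TPM). Bcl2l1 was the lowest of the 3 in T-bet + Plum 2, at 136 TPM. In T-bet + GATA3 cells Mcl1 (160 ± 9.28 TPM), Bax (152 ± 32.8 TPM) and Bcl2l1 (150 ± 18.5 TPM) all lay within 129 to 175 TPM. GFP + GATA3 cells had Bcl2l1 at 93.4 ± 37.1 TPM, below Mcl1 (189 ± 20.3 TPM) and Bax (223 ± 28.1 TPM) with no overlap. In the lower part of the order, Bcl2l11 stood above Bcl2 in both lines with HA-GATA3 and below it in both lines without. The libraries of this pair overlapped in GFP + GATA3 cells only. Pmaip1 was the lowest member in all 4 lines.

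**Figure D1:**
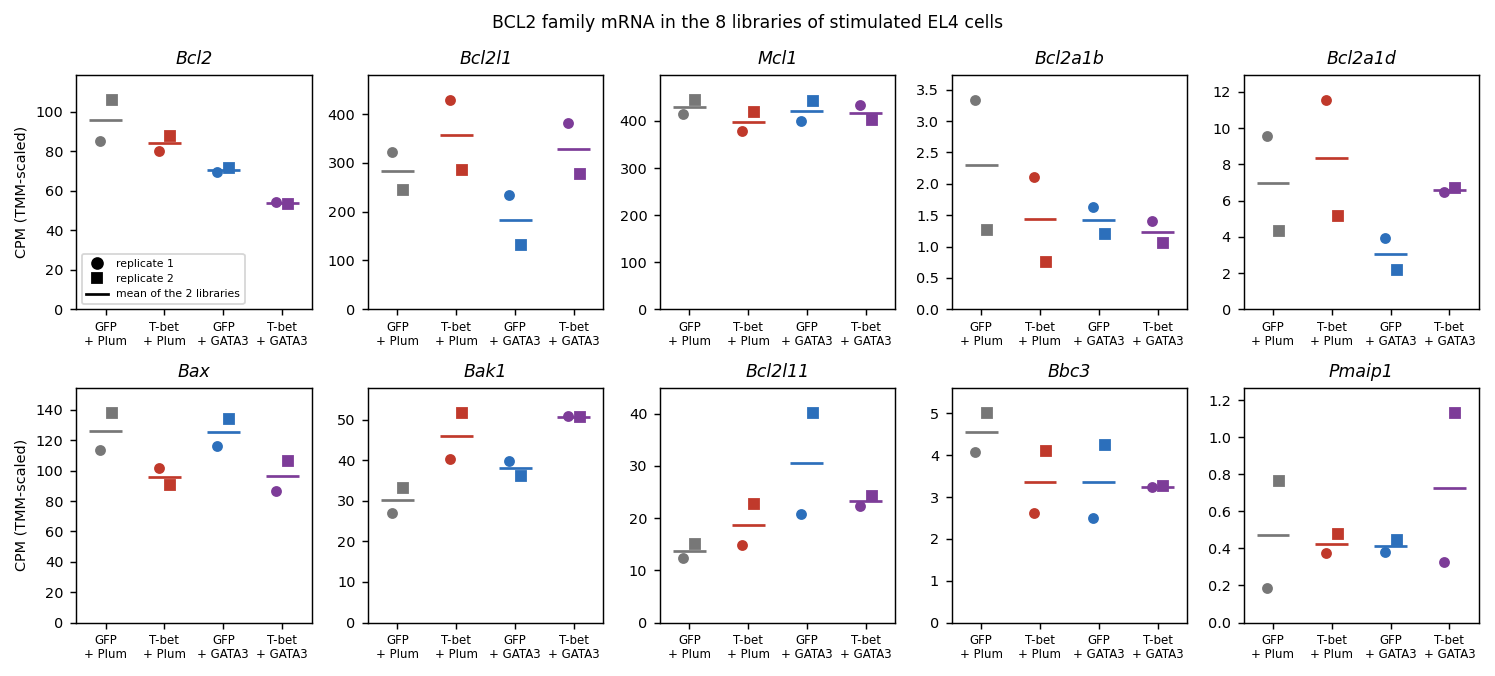
CPM on TMM-scaled library sizes (y axis, starting at 0) for each member in the 4 lines (x axis); circles are replicate 1, squares replicate 2, and the bar is the mean of the 2 libraries. Bcl2 falls from 95.9 CPM in GFP + Plum to 53.8 CPM in T-bet + GATA3, Bak1 is higher and Bax lower in the lines with FLAG-T-bet, and Mcl1 stays between 379 and 445 CPM.

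The design asks what each factor does alone and in the presence of the other. Genes were tested with the quasi-likelihood method of edgeR and called at an FDR (Benjamini-Hochberg, over the 14791 genes tested) of at most 0.05. By this measure Bak1 was the only member called for FLAG-T-bet averaged over both HA-GATA3 states, and it rose. This is 1 of 10 members, against 15.2% of all genes called in that comparison (8.55% of genes called higher and 6.61% lower). At an unadjusted p below 0.05 there were 4 members, beside 29.2% of genes, and the study's added limit of 1.5 on the size of the log2 FC left no member and 4.5% of genes. The median log2 FC of the 10 members was -0.01, beside 0.02 over all genes. No member was called for HA-GATA3 averaged over both FLAG-T-bet states, where 0.0608% of genes were. There, 2 members had an unadjusted p below 0.05, beside 4.96% of genes, and DESeq2 called 1, which was Bcl2. In T-bet + GATA3 against GFP + Plum cells, Bak1 was called higher and Bcl2 lower, 2 of 10 members against 4.87% of genes (3.44% higher, 1.43% lower). In that comparison 4 members had an unadjusted p below 0.05, beside 17.8% of genes, and no member but 2.61% of genes passed the size limit. All 10 members passed the filter on low counts. In bulk RNA a change in the cells that express a gene and a change in RNA per cell cannot be told apart.

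**Figure D2:**
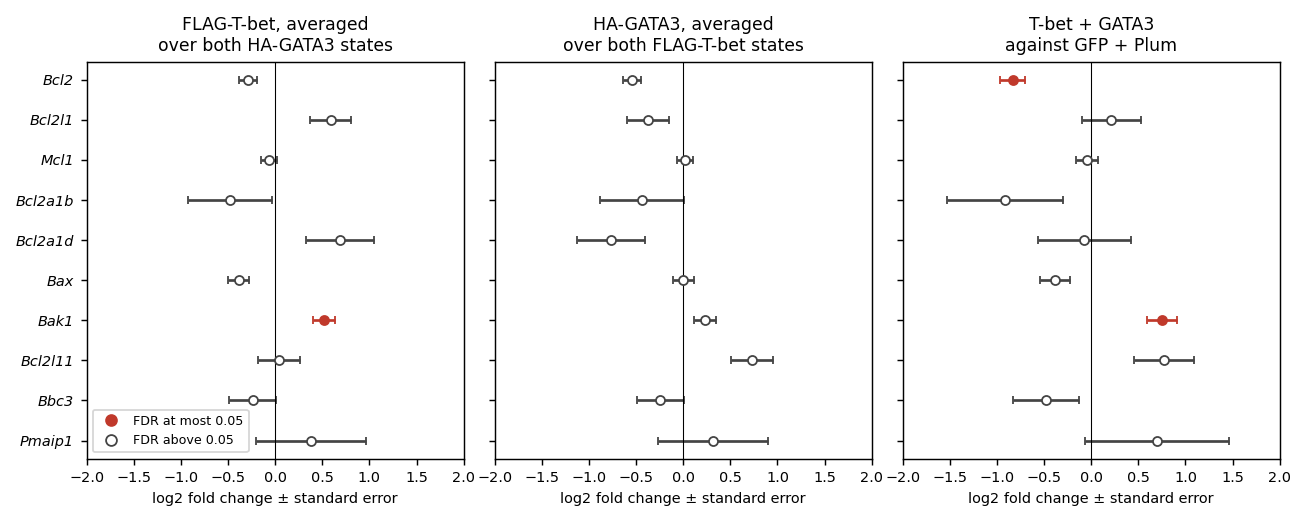
Log2 FC (x axis) for the 10 members (y axis) in 3 comparisons, with bars of 1 standard error; filled red points passed an FDR of 0.05 and open points did not. Bak1 passes for FLAG-T-bet (0.52) and for both factors (0.75), and Bcl2 for both factors (-0.83).

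Bak1 encodes BAK, the effector that sits constantly in the outer mitochondrial membrane. Its gene lies on the minus strand at chr17:27019810-27029009 (GRCm38). Bak1 was at 27.1 and 33.2 CPM in GFP + Plum, 40.3 and 51.6 in T-bet + Plum, 39.7 and 36.2 in GFP + GATA3, and 50.9 and 50.5 in T-bet + GATA3 cells. The 4 libraries with FLAG-T-bet therefore lay above the 4 without, although the gap between 39.7 and 40.3 CPM was small. Bak1 rose with FLAG-T-bet by a log2 FC of 0.52 (SE 0.12, FDR 0.0208) averaged over both HA-GATA3 states. The estimate was 0.61 (SE 0.16, FDR 0.0734) without HA-GATA3 and 0.42 (SE 0.16, FDR 0.204) with it, and the difference between these, -0.19 (SE 0.23), was not called. With both factors, Bak1 was 0.75 (SE 0.16, FDR 0.0404) above GFP + Plum. These calls rested on single libraries. Without any of T-bet + Plum 2, GFP + GATA3 1, GFP + GATA3 2, T-bet + GATA3 1 or T-bet + GATA3 2, the averaged FDR rose to between 0.0594 and 0.0976, and the call for both factors was lost without any library of the other 3 lines (FDR 0.0516 to 0.192), with scaling by library size only (FDR 0.0504) and with offsets for transcript length (FDR 0.0678).

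The files divided Bak1 mainly between a pair of transcripts. Bak1-201, which Gencode classes as a target of nonsense-mediated decay, held 58.1% to 73.0% of Bak1 TPM, and the protein-coding Bak1-202 held 27.0% to 41.9%. They differ by a 20-base exon at chr17:27021663-27021682, shown in capitals between 20 bases of each neighbouring exon because its presence decides which of the transcripts encodes the whole protein of 209 amino acids.

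Bak1-201: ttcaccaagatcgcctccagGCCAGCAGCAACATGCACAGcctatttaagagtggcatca

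Bak1-202: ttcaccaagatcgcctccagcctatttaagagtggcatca

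The first exon of Bak1-202 is also 431 bases longer, so the estimated shares do not rest on the 20-base exon alone, and reads over its junctions were not analysed here. The share of Bak1-201 averaged 65.5 ± 10.5% in GFP + Plum, 63.3 ± 2.59% in T-bet + Plum, 64.2 ± 0.141% in GFP + GATA3 and 62.2 ± 2.19% in T-bet + GATA3 cells (SD, n = 2). The line means differed by less than the spread within GFP + Plum. In TPM the coding transcript averaged 5.45 ± 1.24 in GFP + Plum, 8.23 ± 0.345 in T-bet + Plum, 7.37 ± 0.702 in GFP + GATA3 and 9.27 ± 0.261 in T-bet + GATA3 cells.

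Bax encodes the effector that moves from the cytosol to mitochondria. Its gene is on the minus strand at chr7:45461697-45466898. Bax was measured at 114 and 138 CPM in GFP + Plum, 102 and 90.3 in T-bet + Plum, 116 and 134 in GFP + GATA3, and 86.3 and 106 in T-bet + GATA3 cells. All 4 libraries with FLAG-T-bet lay below all 4 without, on either side of the range from 106 to 114 CPM. The log2 FC averaged over both HA-GATA3 states was -0.38 (SE 0.11, FDR 0.0552), just outside the threshold. It was called in 4 of 5 other settings, among them DESeq2 (FDR 0.0298) and scaling by library size only (FDR 0.0321). Without each library in turn, the averaged log2 FC ran from -0.50 to -0.31. The estimates were alike without HA-GATA3 (-0.39, SE 0.16) and with it (-0.38, SE 0.16). For HA-GATA3 the averaged log2 FC of Bax was -0.0004 (SE 0.11).

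The ratio of Bax to Bak1 TPM was 14.3 and 13.6 in GFP + Plum, 8.31 and 5.46 in T-bet + Plum, 9.26 and 11.8 in GFP + GATA3, and 5.56 and 6.70 in T-bet + GATA3 cells. The 4 libraries with FLAG-T-bet were the lowest. This ratio was not tested. In an exact two-sided permutation test of log2 CPM, 4 libraries with FLAG-T-bet against 4 without, Bak1 and Bax each gave p = 0.0286, the smallest p the 70 splits allow, and 0.210 after adjustment over the 22 tests of this kind. Groups that do not overlap were common in this comparison, at 12.5% of genes higher and 10.2% lower, beside 1 and 1 of the 10 members (22.7% of genes in either direction).

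In the share of Bax-201 no libraries of different lines overlapped, and for each of the other Bax transcripts some did. How often this occurs over all transcripts was not counted. Bax-201 encodes the full protein of 192 amino acids, and Bax-205 a frame of 171 codons. The last exon of Bax-201 begins 4 bases earlier, at chr7:45461963-45461966 on the minus strand, which changes the reading frame. These bases are in capitals.

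Bax-201: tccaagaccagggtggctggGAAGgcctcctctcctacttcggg

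Bax-205: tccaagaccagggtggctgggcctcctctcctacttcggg

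Bax-201 made up 19.5% and 22.9% of Bax TPM in GFP + Plum, 31.4% and 30.4% in T-bet + Plum, 35.1% and 33.8% in GFP + GATA3, and 27.6% and 28.9% in T-bet + GATA3 cells. It was lowest in the control line and highest with HA-GATA3 alone, and no libraries of different lines overlapped. Bax-205 went the other way, at 38.8 ± 0.344% in GFP + Plum, 30.1 ± 0.632% in T-bet + Plum, 30.1 ± 0.318% in GFP + GATA3 and 35.7 ± 0.212% in T-bet + GATA3 cells (SD, n = 2), and its libraries overlapped between T-bet + Plum and GFP + GATA3. Bax-202, at 15.5% to 23.4%, and the retained-intron Bax-206, at 7.60% to 17.4%, overlapped between lines. The first exon of Bax-201 is 62 bases longer as well, and the shares are model estimates that depend on one another, so no test was made. In TPM, Bax-201 averaged 47.3 ± 7.25 in GFP + Plum, 50.1 ± 5.75 in T-bet + Plum, 76.6 ± 7.59 in GFP + GATA3 and 43.0 ± 10.7 in T-bet + GATA3 cells.

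**Figure D3:**
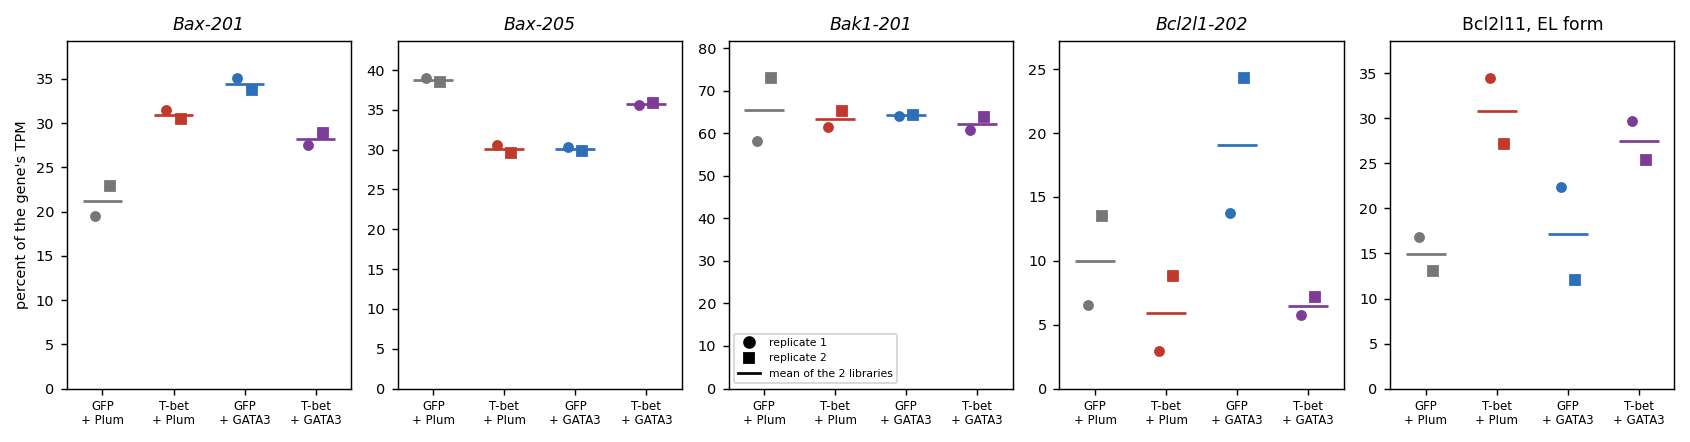
Percent of the gene's TPM (y axis, starting at 0) held by Bax-201, Bax-205, Bak1-201, Bcl2l1-202 and the EL form of Bcl2l11 in the 4 lines (x axis); circles are replicate 1, squares replicate 2 and bars the means. Bax-201 is lowest in GFP + Plum (19.5% and 22.9%), and the EL form is above 25% in the 4 libraries with FLAG-T-bet and below 22.4% in the others. How often shares separate in these ways over all transcripts was not counted.

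Bcl2 was the pro-survival member with a call. Bcl2, the founding member of the family, lies on the minus strand at chr1:106538178-106714274. It was at 85.5 and 106 CPM in GFP + Plum, 80.3 and 88.0 in T-bet + Plum, 69.8 and 71.6 in GFP + GATA3, and 54.2 and 53.4 in T-bet + GATA3 cells. The lines with HA-GATA3 lay below the lines without, and the line with both factors was the lowest. T-bet + GATA3 cells had a log2 FC of -0.83 against GFP + Plum (SE 0.14, FDR 0.0120, lower). This call was lost without T-bet + GATA3 1 (FDR 0.0730) or T-bet + GATA3 2 (FDR 0.0549), each of which leaves that line with 1 library.

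The HA-GATA3 difference in Bcl2, averaged over both FLAG-T-bet states, was -0.54 (SE 0.10), with an unadjusted p of 0.000444 by edgeR and an FDR of 0.153. It was -0.44 (SE 0.13, FDR 0.899) without FLAG-T-bet and -0.65 (SE 0.14, FDR 0.540) with it. DESeq2 called the averaged difference (FDR 0.00854). For FLAG-T-bet the averaged log2 FC was -0.29 (SE 0.10, FDR 0.0800). The interaction was -0.21 (SE 0.19, FDR 1.00). Bcl2 was the 1 member whose 4 libraries with HA-GATA3 (53.4 to 71.6 CPM) did not overlap the 4 without (80.3 to 106 CPM), with an exact permutation p of 0.0286 and 0.210 after adjustment. Such a separation was rarer here than for FLAG-T-bet, at 0.798% of genes lower with HA-GATA3 (1.62% in either direction). Bcl2-201, which encodes the whole protein of 236 codons, held 84.4% to 90.9% of Bcl2 TPM.

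Bcl2l1 encodes BCL-XL, which protects immature double-positive thymocytes and is induced on T cell activation. It was at 323 and 244 CPM in GFP + Plum, 430 and 286 in T-bet + Plum, 235 and 133 in GFP + GATA3, and 383 and 277 in T-bet + GATA3 cells. The library numbered 2 was the lower in all 4 lines. Both GFP + GATA3 libraries lay below all others, while the libraries of the other 3 lines overlapped. FLAG-T-bet gave an averaged log2 FC of 0.59 (SE 0.22, FDR 0.118), and 0.85 (SE 0.31, FDR 0.182) in the presence of HA-GATA3. Neither passed the threshold in the edgeR fit by line. DESeq2 called both (FDR 0.0314 and 0.0385), as did edgeR with a block for the replicate number. So did edgeR without the filter on low counts (FDR 2.21e-05 and 1.39e-05). Bcl2l1 had passed that filter, so its counts were the same in this setting. Low-count genes were added to the fit (30930 tested in place of 14791). Scaling by library size only and offsets for transcript length called neither change. For HA-GATA3 the averaged log2 FC was -0.37 (SE 0.22, FDR 1.00).

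The Bcl2l1 gene, on the minus strand at chr2:152780668-152831728, has several start sites. Bcl2l1-201, which starts at the far upstream end, held 61.6% to 81.7% of the gene's TPM. Bcl2l1-202 has another first exon but the same frame of 233 codons. Its share was 6.57% and 13.5% in GFP + Plum, 2.96% and 8.81% in T-bet + Plum, 13.8% and 24.3% in GFP + GATA3, and 5.73% and 7.17% in T-bet + GATA3 cells. The GFP + GATA3 libraries were the highest. In TPM, however, Bcl2l1-202 was 16.5 and 16.3 in that line and 11.1 and 15.4 in GFP + Plum cells. Its high share in GFP + GATA3 thus went with a lower level of Bcl2l1-201, at 63.2 ± 30.9 TPM against 109 ± 37.9 TPM (SD, n = 2).

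Promoter windows of RefSeq (GRCm38.p6, from 250 bases before to 50 after a start) were found for 9 of the 10 members, 14 windows in all. They were searched on both strands for the T-box letters AGGTGTGA and GTGTGA and the GATA letters AGATAA and GATAA. These occur in 1.28%, 14.5%, 11.2% and 25.4% of all 32851 windows. A single member window held any of them. This was the Bcl2l1 window at chr2:152828440-152828739 on the minus strand, with GTGTGA at 139 bases and AGATAA, which contains GATAA, at 41 bases before the start. Both are in capitals.

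Bcl2l1 promoter window: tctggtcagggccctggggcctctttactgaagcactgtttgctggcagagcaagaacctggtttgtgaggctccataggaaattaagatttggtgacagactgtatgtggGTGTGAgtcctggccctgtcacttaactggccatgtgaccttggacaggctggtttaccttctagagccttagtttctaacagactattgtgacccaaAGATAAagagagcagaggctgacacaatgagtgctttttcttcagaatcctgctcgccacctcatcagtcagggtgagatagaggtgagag

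The annotated transcript with its first exon in this window, Bcl2l1-209, has no coding frame and held at most 1.80% of Bcl2l1 TPM in any library. The match of letters is a description of the sequence, and binding of either factor was not analysed here.

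Mcl1 encodes a short-lived pro-survival protein on which T cells depend at all stages. The gene lies at chr3:95658788-95663176 and was the steadiest member, with 379 to 445 CPM over the 8 libraries. The averaged log2 FC was -0.06 (SE 0.08, FDR 0.676) for FLAG-T-bet and 0.02 (SE 0.08, FDR 1.00) for HA-GATA3. Mcl1-202, spliced within the first exon to a frame of 285 codons in place of 331, held 23.1% to 33.7% of Mcl1 TPM. The ratio of Mcl1 to Bcl2l1 TPM was 1.46 and 3.02 in GFP + GATA3 cells and between 0.691 and 1.58 in the other 6 libraries.

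Bcl2a1b and Bcl2a1d belong to a cluster of mouse copies on chromosome 9 that encode A1, a target of NF-κB. Over 817 aligned bases their transcripts differ at 7 (99.1% identity), and 26.7% of the 31-base words of Bcl2a1b and 10.9% of those of Bcl2a1d occur in no other copy. Values of the single copies are therefore uncertain, since kallisto divides the fragments they share. Bcl2a1d ranged from 2.16 to 11.6 CPM and Bcl2a1b from 0.752 to 3.34 CPM. Bcl2a1a reached 5 counts in 1 library and was at 0 in the others, and Bcl2a1c reached 2 counts. Summed over the 4 copies, the level was 13.0 and 5.58 CPM in GFP + Plum, 14.3 and 5.95 in T-bet + Plum, 5.55 and 3.36 in GFP + GATA3, and 7.89 and 7.91 in T-bet + GATA3 cells. Libraries of a line differed by more than 2-fold in both lines without HA-GATA3. The averaged log2 FC of the sum was 0.47 (SE 0.36, FDR 0.444) for FLAG-T-bet and -0.70 (SE 0.36, FDR 1.00) for HA-GATA3. Neither was called.

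Of the BH3-only members, Bcl2l11 had the largest log2 FC for a single factor, and its call depended on the filter on low counts. It encodes BIM, which can bind all of the pro-survival proteins, and lies at chr2:128126038-128162547. Bcl2l11 was at 12.4 and 15.0 CPM in GFP + Plum, 14.8 and 22.7 in T-bet + Plum, 20.9 and 40.1 in GFP + GATA3, and 22.4 and 24.3 in T-bet + GATA3 cells. GFP + GATA3 2 stood above all other libraries, and libraries with HA-GATA3 overlapped those without between 20.9 and 22.7 CPM. In GFP + GATA3 against GFP + Plum cells the log2 FC was 1.16 (SE 0.32), with an unadjusted p of 0.00615 by edgeR but an FDR of 0.702. The averaged HA-GATA3 difference was 0.73 (SE 0.22, FDR 0.637), and 0.30 (SE 0.32, FDR 1.00) in the presence of FLAG-T-bet. The interaction of -0.86 (SE 0.45, FDR 1.00) was not called. Without the filter on low counts, edgeR called Bcl2l11 for HA-GATA3 without FLAG-T-bet (FDR 3.28e-05), for HA-GATA3 averaged (FDR 0.000282) and for both factors (FDR 0.0117). No other setting did. Bcl2l11 had passed this filter, so its counts were the same there and only the other genes in the fit changed. Without GFP + GATA3 2, the log2 FC in GFP + GATA3 cells was 0.61.

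BIM is made in forms named by length, and their mRNAs were told apart by coding length. The S form of 110 codons held 36.7% to 54.5% of Bcl2l11 TPM, the L form of 140 codons 2.94% to 17.6%, and a form of 91 codons with another 3′ end 7.61% to 21.6%. The EL form of 196 codons held 16.8% and 13.1% in GFP + Plum, 34.5% and 27.1% in T-bet + Plum, 22.3% and 12.1% in GFP + GATA3, and 29.7% and 25.4% in T-bet + GATA3 cells. Its share was higher in all 4 libraries with FLAG-T-bet than in the 4 without. How often shares separate this way over all transcripts was not counted. In CPM, 22.7% of genes did so in either direction. In TPM the EL form was 1.21 and 1.05 in GFP + Plum, 2.14 and 2.44 in T-bet + Plum, 2.35 and 2.97 in GFP + GATA3, and 2.67 and 2.66 in T-bet + GATA3 cells, so the control line was the lowest. The EL estimates rest on 80.3 to 205 counts per library, and those of the S form on 11.1 to 107. The L form had 9.01 to 205 counts and the form of 91 codons 7.99 to 107. In every library the EL form had more counts than the S form, whose main transcript is annotated at 672 bases against 5036. None of these shares was tested. The mean transcript length of Bcl2l11 moved with these shares. The averaged log2 FC for FLAG-T-bet was 0.04 (SE 0.22, FDR 0.937) on counts and -0.30 (FDR 0.507) with offsets for transcript length.

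Bbc3 and Pmaip1, BH3-only genes that p53 is known to induce, were scarce. Bbc3 was at 2.49 to 5.01 CPM (21 to 79 counts), with averaged log2 FCs of -0.24 (SE 0.25) for FLAG-T-bet and -0.24 (SE 0.25) for HA-GATA3. A retained-intron transcript, Bbc3-203, held 24.2% to 47.5% of Bbc3 TPM in the 4 libraries without FLAG-T-bet and 0% to 15.2% in the 4 with it, on at most 19.5 counts. This separation was not tested, nor was its frequency over all transcripts counted. Pmaip1 had 3 to 17 counts per library, near the floor of 3 counts. The SE of its averaged log2 FC was 0.58 for each factor, and neither difference was called (FDR 0.717 and 1.00).

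The sums over roles put these values together. Pro-survival mRNA was 394 and 319 TPM in GFP + Plum, 388 and 327 in T-bet + Plum, 314 and 288 in GFP + GATA3, and 334 and 323 in T-bet + GATA3 cells. The effectors summed to 231 and 246 TPM in GFP + Plum, 193 and 179 in T-bet + Plum, 225 and 263 in GFP + GATA3, and 152 and 201 in T-bet + GATA3 cells. Most of the effector sum was Bax (129 to 243 TPM), with Bak1 at 15.1 to 27.7 TPM. It includes the short Bax-202, the retained-intron Bax-206 and Bak1-201, which is classed as a target of nonsense-mediated decay. The BH3-only members were at 7.97 to 13.1 TPM in 7 libraries and at 28.3 TPM in GFP + GATA3 2. The ratio of pro-survival to effector TPM was 1.71 and 1.29 in GFP + Plum, 2.01 and 1.83 in T-bet + Plum, 1.40 and 1.09 in GFP + GATA3, and 2.20 and 1.61 in T-bet + GATA3 cells. Its mean was lowest with HA-GATA3 alone, although GFP + GATA3 1 (1.40) lay above GFP + Plum 2 (1.29). The libraries with and without FLAG-T-bet overlapped between 1.61 and 1.71. The ratio of Bcl2 to Bcl2l11 TPM was 2.07 and 2.02 in GFP + Plum, 2.04 and 1.60 in T-bet + Plum, 1.13 and 0.505 in GFP + GATA3, and 0.859 and 0.825 in T-bet + GATA3 cells. All 4 libraries with HA-GATA3 were below all 4 without. Bcl2 CPM alone separated these groups, as did that of 0.798% of genes lower with HA-GATA3, whereas Bcl2l11 CPM overlapped. How often ratios of other genes separate was not counted. These sums and ratios were not tested, since the members were not chosen independently of the data, and mRNA ratios are not protein ratios.

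**Figure D4:**
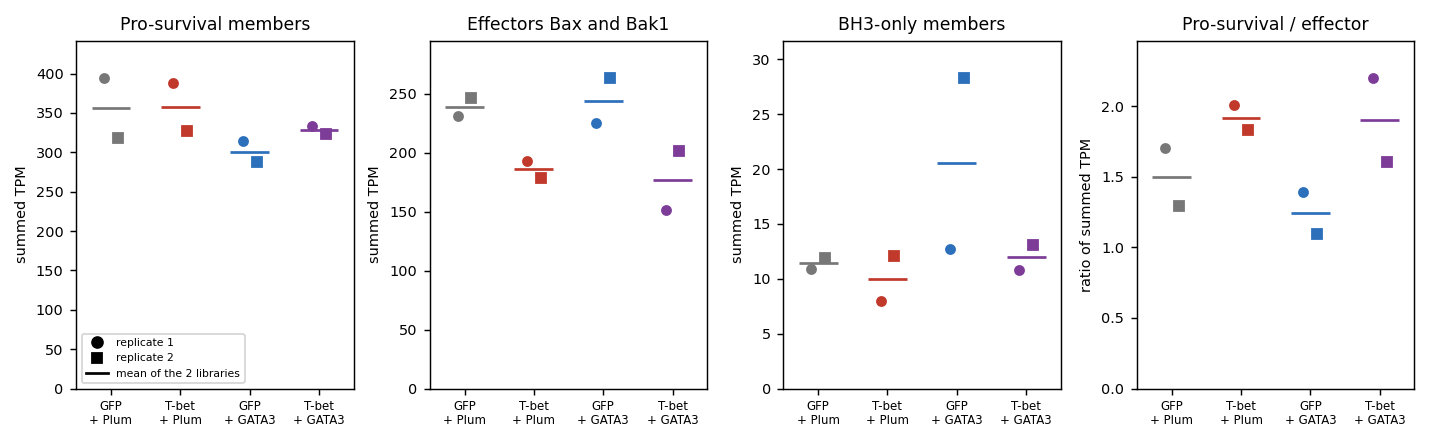
Summed TPM (y axes, starting at 0) of the 5 pro-survival members, of Bax and Bak1, and of the 3 BH3-only members, and the ratio of pro-survival to effector TPM, in the 4 lines (x axis); circles are replicate 1, squares replicate 2 and bars the means. The effector sum, mostly Bax, is lower in the 4 libraries with FLAG-T-bet (152 to 201 TPM) than in the others (225 to 263 TPM). Bak1, the other effector, rose with FLAG-T-bet. In CPM, 10.2% of genes were lower with FLAG-T-bet without overlap.

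No difference between the FLAG-T-bet effects with and without HA-GATA3 was called in any member. The interaction had 0 of 10 members at an unadjusted p below 0.05 and none with DESeq2, and edgeR called 0% of all genes, with 2.58% at an unadjusted p below 0.05. Comparisons of 1 factor, in the absence or the presence of the other, also called no member in the edgeR fit by line. For FLAG-T-bet without HA-GATA3, 2 members had an unadjusted p below 0.05 (19.4% of genes) and DESeq2 called none, against 6.2% of genes called by edgeR. With HA-GATA3 present, 4 members had such a p (19.6% of genes) and DESeq2 called 1, against 5.77% of genes called by edgeR. For HA-GATA3 the counts of members at that p were 3 without FLAG-T-bet (3.7% of genes) and 1 with it (3.78% of genes). DESeq2 called no member in either, and edgeR called 0.0203% and 0.0338% of genes.

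Apoptosis genes outside the 10 members were counted from lists of 67 genes, of which 57 passed the filter on low counts. For FLAG-T-bet averaged over both HA-GATA3 states, 7 were called higher and 1 lower, 8 of 57, a share near the 15.2% of all genes, and the median log2 FC was 0.03. None was called by edgeR for HA-GATA3 averaged, where 4 had an unadjusted p below 0.05 and DESeq2 called 0. The death receptor arm had 3 of 10 genes higher and none lower. Fasl, the ligand of the death receptor FAS, was at 7.78 to 11.7 CPM with FLAG-T-bet and 0.824 to 1.05 CPM without (log2 FC 3.30, SE 0.20, FDR 4.24e-05). Tnfsf10, which encodes TRAIL, was at 2.86 to 6.84 CPM against 0.444 to 0.866 CPM (log2 FC 3.03, SE 0.41, FDR 0.00216). Tnfrsf1a, the TNF receptor that signals death or NF-κB activation, was at 79.6 to 158 CPM against 32.4 to 49.8 CPM (log2 FC 1.40, SE 0.21, FDR 0.00391). These 3 kept their call without each library in turn and with each of the other fits.

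The link from death receptors to BAX and BAK is BID, a BH3-only protein that caspase-8 cleaves. Bid was 1 of 6 genes tested among the other BH3-only and BH3-like genes and the only 1 called, with 134 to 182 CPM with FLAG-T-bet and 68.3 to 103 CPM without (log2 FC 0.76, SE 0.15, FDR 0.0120). That call was lost without T-bet + Plum 1 (FDR 0.0513) or GFP + GATA3 1 (FDR 0.0525). In the apoptosome and caspase list 1 of 13 genes was called, Endog, a mitochondrial nuclease (log2 FC 0.93, SE 0.20, FDR 0.0180). Of 5 inhibitors of apoptosis, Birc5, which encodes survivin and also serves cell division, was called lower (log2 FC -0.93, SE 0.24, FDR 0.0354), at 31.4 to 64.0 CPM against 82.9 to 105 CPM. In the p53 list 1 of 7 was called, Sesn2, a stress-response gene (log2 FC 1.13, SE 0.17, FDR 0.00344), and among 12 regulators of BCL2 proteins or their RNA Fbxw7, part of a ubiquitin ligase that marks MCL1 for degradation (log2 FC 0.47, SE 0.11, FDR 0.0247). The call of Endog was lost without T-bet + Plum 2, GFP + GATA3 1, GFP + GATA3 2 or T-bet + GATA3 1 (FDR up to 0.0790). That of Birc5 was lost without any of these or GFP + Plum 2 (FDR up to 0.125). Fbxw7 was called only without GFP + Plum 1 or GFP + Plum 2 when a library was left out, and lost its call with offsets for transcript length (FDR 0.205). None of the 3 other BCL2-like genes was called, nor was Bcl2l2, the other pro-survival gene that passed the filter. Bok, the third effector, had 0 counts in all libraries.

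**Figure D5:**
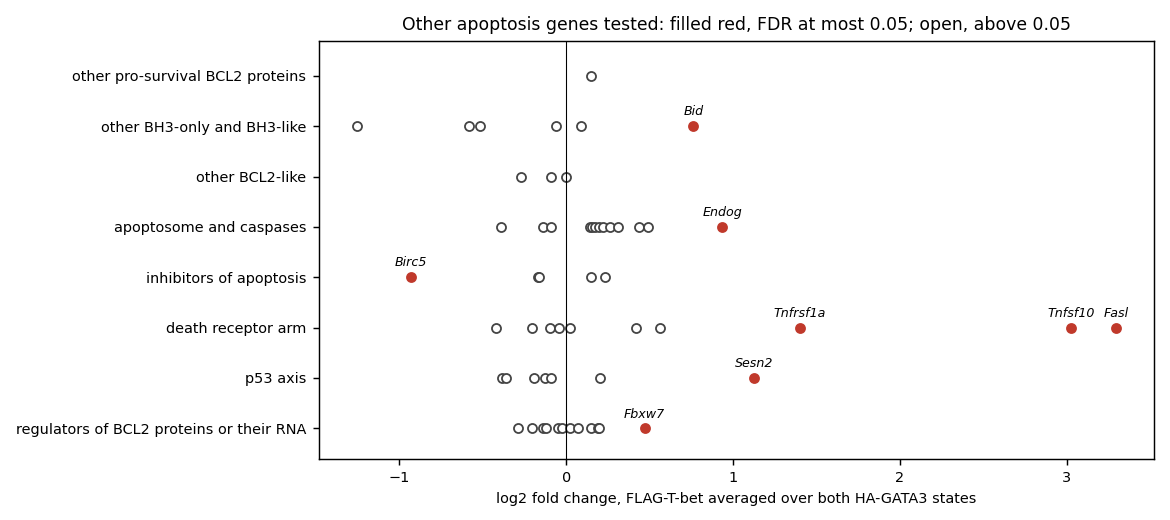
Log2 FC for FLAG-T-bet averaged over both HA-GATA3 states (x axis) of the 57 other apoptosis genes tested, by list (y axis); each point is a gene, filled red at an FDR of at most 0.05. Fasl (3.30), Tnfsf10 (3.03) and Tnfrsf1a (1.40) of the death receptor arm lie farthest to the right, and Birc5 (-0.93) is the called gene to the left.

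In T-bet + GATA3 against GFP + Plum cells, 3 of the 57 genes were called, all higher, a share near the 4.87% of all genes (6 with DESeq2, which called 6.16% of all genes). They were Fasl (log2 FC 3.00, SE 0.28, FDR 0.000938), Tnfsf10 (2.77, SE 0.56, FDR 0.0315) and Bid (0.93, SE 0.21, FDR 0.0488). This comparison shares its GFP + Plum and T-bet + GATA3 libraries with the averaged one.

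Across the 8 libraries, the genes whose log2 CPM was most like that of Bak1 were AC092855.1 (Pearson's r = 0.974, Spearman's rho = 0.976), Adk (0.968 and 0.976) and Rph3al (0.962 and 0.952). These values describe 8 libraries in pairs from the same 4 lines, all stimulated alike, and carry no test.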

How the data were processed

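RNA-seq covered 8 libraries, 2 from each of 4 stimulated EL4 lines. The labels and methods name FastQC for read quality, Trim Galore for trimming and kallisto for quantification on Gencode models (the methods name M20, the deposited values M18). Versions are not given in the sources used here. The authors deposited estimated counts, which are not normalized, and TPM, which they scaled by effective length and library, for each transcript.

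Both were summed per gene ID, and members were picked by gene symbol. Rounded counts were fitted with edgeR 4.0.16 in R 4.3.3 (TMM, filterByExpr, a mean per line, quasi-likelihood test, 4 degrees of freedom left before moderation). The study's size limit of 1.5 was an alternative. SE is the size of the log2 FC over the root of F. Permutation tests used log2(CPM + 0.2). DESeq2 was 1.42.0. Scripts were tested on simulated data, with 50 genes changed at each size. The averaged FLAG-T-bet comparison recovered 8% of them at a log2 FC of 0.5 and 64% at 1. It recovered 68% at 1.5 and 88% at 2. Far fewer genes changed there than were called in the data, so the shares do not carry over directly. A missing call is not evidence of no change. Transcripts were named by Gencode M21 (GRCm38).

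The members and lists were chosen with earlier results of these data known. Other genes were named at an averaged FDR of at most 0.05, at most 4 per list. Transcripts were named at 10% of a gene's TPM in any library or, for Bcl2l1-209, after its values were seen. The 2 libraries of each line were not alike within sampling noise (chi-square per degree of freedom 10.9 to 32.7).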

Additional observations from a re-analysis of the deposited data

Results flagged for a closer look

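In 40 sets of 4 libraries (10 members, with or without each factor), 2 had a library far from the other 3, as chance gives in about 1 of 20 sets. Bak1 in T-bet + Plum 1 was 40.3 CPM, below the 50.5 to 51.6 CPM of the other libraries with FLAG-T-bet, and the gap was 0.904 of the range. This library was the shallowest, with 324 Bak1 counts. Pmaip1 in T-bet + GATA3 2 was 1.13 CPM, above 0.324 to 0.444 CPM in the other libraries with HA-GATA3, with a gap of 0.852 of the range. It rests on 17 counts against 3 to 7. For each, the critical value was 0.829.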

How the results depend on the processing

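Counts of members called were 0 for each factor alone or on top of the other, 1 for FLAG-T-bet averaged, 0 for HA-GATA3 averaged and 2 for both factors. Each count below is followed by the share of all genes called in the same setting. Without the filter on low counts they were 1 (6.35%) for FLAG-T-bet without and 2 (6.26%) with HA-GATA3, 4 (10.3%) averaged, 3 (0.947%) for HA-GATA3 without FLAG-T-bet and 2 (1.21%) averaged, Bcl2l11 being among those gained for HA-GATA3. DESeq2 called 1 (7.71%) for FLAG-T-bet with HA-GATA3, 3 (13%) averaged and 1 (0.594%) for HA-GATA3 averaged. Library size only gave 3 (15.6%) for FLAG-T-bet averaged and 1 (4.62%) for both factors, and length offsets 1 (4.21%) for both factors. The limit of 1.5 left 0 in either (4.5% and 2.61%). Without each library in turn, counts ran from 0 to 3 for FLAG-T-bet averaged (7.82% to 15.2%) and 0 to 2 for both factors (2.42% to 3.63%). Members without overlap ran from 2 to 4 for FLAG-T-bet (4 without GFP + Plum 1, beside 30.2% of genes) and 1 to 2 for HA-GATA3 (2 without T-bet + Plum 2, beside 3.64%). The cause was not tested.

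Between lines, deviations of same-numbered libraries correlated at -0.05 to 0.30. The only pair of lines below 0 was T-bet + Plum with T-bet + GATA3. Whether equal numbers mark a shared harvest was not tested. With the replicate block, counts were 1 for FLAG-T-bet without HA-GATA3 (Bak1, beside 9.74% of genes), 1 with it (Bcl2l1, FDR 0.00517, beside 9.32%) and 4 averaged (Bak1, Bax, Bcl2 and, at an FDR of 0.00301, Bcl2l1, beside 20.7%), and Bcl2a1d with both factors turned to 0.074.

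Uncalled log2 FCs changed sign for Bcl2l11 with FLAG-T-bet averaged (library size only -0.0231, length offsets -0.30) and Bax with HA-GATA3 averaged (DESeq2 0.00242, no filter 0.00533). Without each library in turn, ranges that crossed 0 were -0.16 to 0.31 for Bcl2l11 and -0.27 to 1.03 for Pmaip1 with FLAG-T-bet averaged, -0.0192 to 0.0564 for Mcl1, -0.0845 to 0.0755 for Bax and -0.30 to 0.97 for Pmaip1 with HA-GATA3 averaged. With both factors they were -0.0598 to 0.43 for Bcl2l1, -0.53 to 0.61 for Bcl2a1d, -0.12 to 0.0107 for Mcl1 and -0.57 to 2.0 for Pmaip1. Leaving out a library leaves a line with 1, which is assumed to vary like the others.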
